A study of Mus musculus with 2 samples.

Results

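The genes described here are 10 genes of the elastic fiber and its microfibril scaffold, found by gene symbol among the 24346 genes measured in the dorsal skin wounds of WT and PU.1 KO mice. They are elastin (Eln), the fibrillins Fbn1 and Fbn2, the fibulins Fbln1, Fbln2 and Fbln5, the emilins Emilin1 and Emilin2, and the microfibril-associated proteins Mfap4 and Mfap5. All 10 symbols were present in both libraries. The mice were C57BL/6J pups, 1 day old at wounding, and the skin was taken 24 h later. One group was wild type (label WT) and the other lacked PU.1 in all tissues (label PU.1_KO, written PU.1 KO here). Each group was 1 library, made from mRNA with a stranded kit. The study's methods describe incisional wounds of 1 cm and the deposited design text calls them excisional. How many pups went into each library is not stated in the sources used here.

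Elastic fibers give skin its recoil. Fibrillin monomers assemble into microfibrils, tropoelastin is deposited on them, fibulins and emilins join both parts together, and lysyl oxidases crosslink the elastin. In mice most elastin is made around birth by fibroblasts and smooth muscle cells, so neonatal dermis is a tissue in which this program is active. PU.1, encoded by Spi1, is an ETS-family transcription factor of the blood lineages, and according to the study, PU.1 KO pups have no T cells, mast cells, neutrophils or macrophages.

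The values were FPKM, fragment numbers divided by the length of a gene's exons and by library depth, so that levels of different genes can be compared. The 2 libraries had depths of 1.38e+07 and 1.59e+07 fragments, estimated from the FPKM that 1 read was worth in low genes. These are the depths implied by the FPKM scaling, and the sequenced depths may differ. With 1 library per genotype there was no spread between animals and no test was possible. The intervals given are 95% counting intervals from estimated reads. They cover counting error only. In bulk tissue, fewer cells of a type and less RNA per cell cannot be told apart. Spi1 was measured at 35.4 FPKM in WT against 1.45 FPKM in PU.1 KO, a 24.3-fold difference. The labelled tissue was checked by its markers. Keratinocyte markers were abundant, with Krt14 at 4659 and 5195 FPKM and Krt10 at 2291 and 2602 FPKM, and so were fibroblast markers, with Col3a1 at 1042 and 1110 FPKM and Dcn at 690 and 959 FPKM. The Y-linked genes Uty, Kdm5d, Eif2s3y and Ddx3y were measured in WT and listed at 0 in PU.1 KO, while Xist was listed at 0 in WT and at 9.48 FPKM in PU.1 KO, so genotype and these signs of sex cannot be told apart.

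The DNA before the transcription start is shown for the genes whose window lies wholly outside the annotated RefSeq gene, because the deleted protein belongs to a family that binds the letters GGAA. The windows hold 250 bases of GRCm38.p6, the assembly of mm10, ending 1 base before the start, and capitals mark GGAA or its reverse complement TTCC.
Emilin2, chr17:71311557-71311806, minus strand: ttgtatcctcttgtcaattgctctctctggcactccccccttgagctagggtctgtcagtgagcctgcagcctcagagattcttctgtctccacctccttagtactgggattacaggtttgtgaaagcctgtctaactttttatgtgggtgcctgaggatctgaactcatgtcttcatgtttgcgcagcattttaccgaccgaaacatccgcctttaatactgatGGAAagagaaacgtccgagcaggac
Fbln1, chr15:85205699-85205948, plus strand: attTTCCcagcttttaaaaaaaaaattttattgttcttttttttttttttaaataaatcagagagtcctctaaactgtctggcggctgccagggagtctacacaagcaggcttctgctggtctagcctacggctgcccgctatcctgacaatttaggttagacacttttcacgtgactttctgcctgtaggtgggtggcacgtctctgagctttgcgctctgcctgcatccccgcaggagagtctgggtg
Fbln5, chr12:101819120-101819369, minus strand: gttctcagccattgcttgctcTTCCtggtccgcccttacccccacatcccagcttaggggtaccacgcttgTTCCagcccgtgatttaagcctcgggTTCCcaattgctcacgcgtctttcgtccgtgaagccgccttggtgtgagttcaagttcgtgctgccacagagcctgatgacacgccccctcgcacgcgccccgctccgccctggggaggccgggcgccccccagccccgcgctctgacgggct
The Emilin2 and Fbln1 windows held 1 match each and the Fbln5 window held 3. A second window of each gene, at another annotated start and overlapping the gene, is not shown. It held 8 matches for Emilin2, 5 for Fbln5 and 0 for Fbln1. Among 32851 RefSeq windows of the same length, 93.4% held a match to GGAA on either strand, with a median of 3. The longer form GAGGAA, which contains GGAA, was found in 23.3% of all windows and in none of these 3. Of the 9 windows available for 6 of the genes, 1 of Emilin1 held GAGGAA. A match is a run of letters and not a measured binding site, and PU.1 binding was not measured in these data.

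The largest differences among the elastic fiber genes were those of Emilin2 and Mfap5, both lower in the PU.1 KO wound. Of the 10 genes, 6 were within 1.3-fold of WT in the PU.1 KO wound, as were 75.1% of the 13237 genes of at least 1 FPKM in 1 or both libraries. Only Emilin2 was at least 2-fold lower, against 4.45% of all genes, and Mfap5 joined it at a 1.5-fold threshold, against 8.17% of all genes. None of the 10 was 1.5-fold or 2-fold higher, against 5.45% and 1.71% of all genes. With so few genes, these counts were near what the background shares give. The median log2 ratio (PU.1 KO over WT) was −0.17 for the 10 genes and 0.00 for all genes, and 7 of the 10 were below WT. The summed level of the 10 genes was 386 FPKM in WT against 323 FPKM in PU.1 KO. The net difference was 63.1 FPKM, and Emilin2 and Mfap5 together were lower by 55.6 FPKM. Without those 2 genes, which were set apart after their values were seen, the sums were 284 and 277 FPKM. Of the other 8 genes, 5 were lower and 3 higher, so falls and rises partly cancelled in these sums. Fbn1, for example, had 33.3 and 24.4 FPKM, and Mfap4 had 24.4 and 35.2 FPKM.

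**Figure D1:**
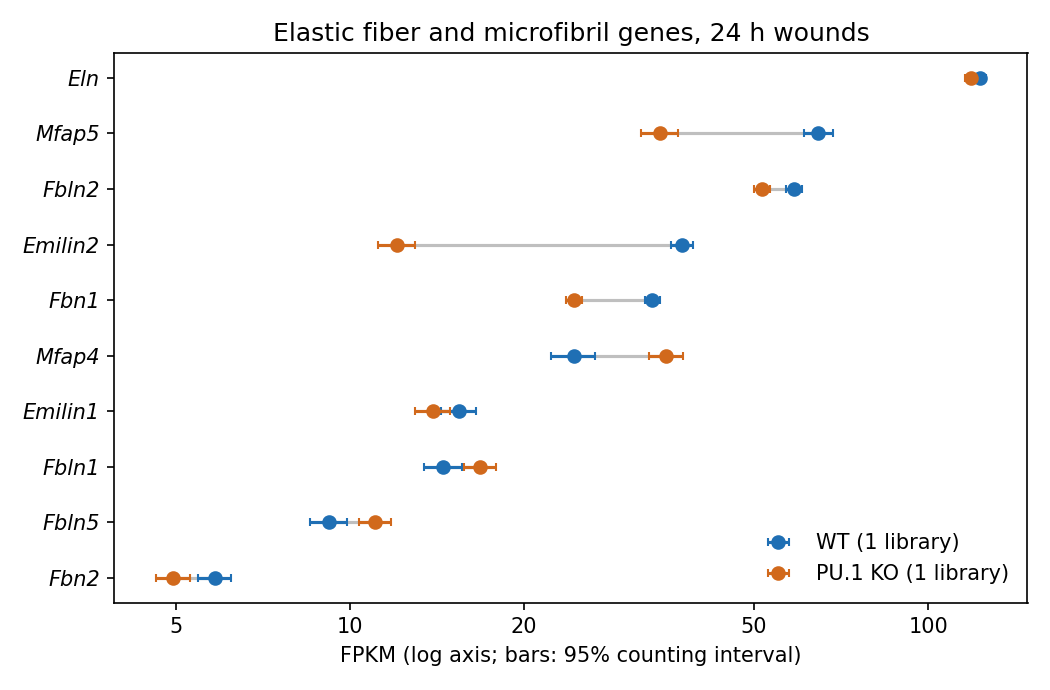
Level of each gene in FPKM on a log axis, WT in blue and PU.1 KO in orange, 1 library each, with bars for the 95% counting interval. Eln is the highest in both libraries, at 123 and 119 FPKM, and the longest gaps between the points belong to Emilin2 and Mfap5.

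**Figure D2:**
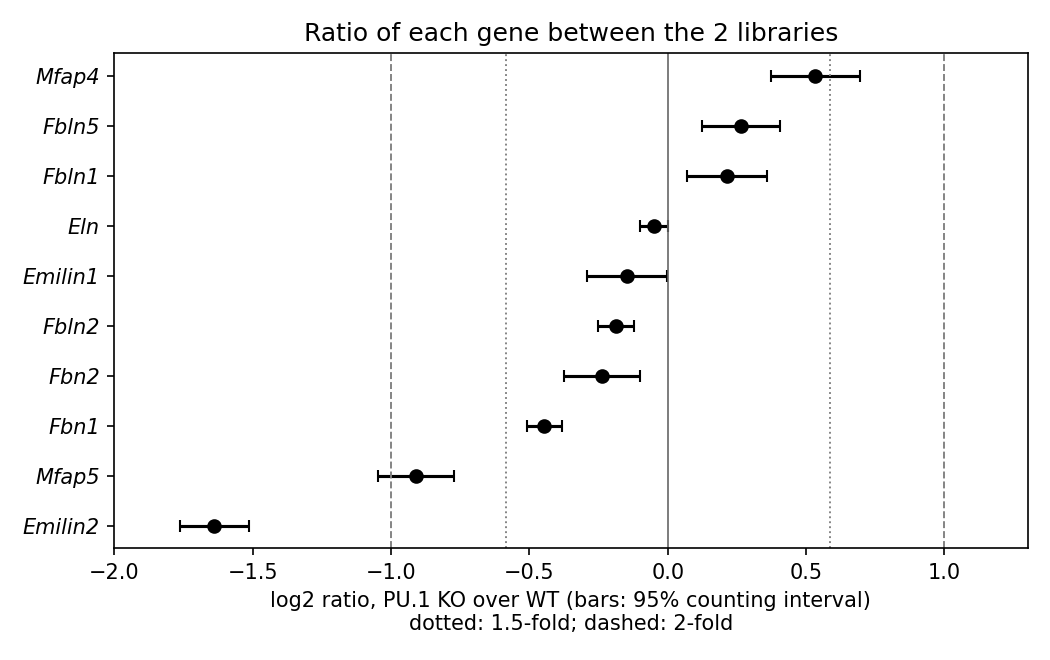
Log2 ratio of PU.1 KO over WT for each gene, with bars for the 95% counting interval, dotted lines at 1.5-fold and dashed lines at 2-fold. Emilin2 at −1.64 lies beyond the 2-fold line, Mfap5 at −0.91 between the lines, and Mfap4 at 0.53 is the highest.

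Elastin, the core protein of the fiber, was the most abundant of the 10 transcripts in both wounds. Eln lies on chromosome 5 of mm10 from 134702595 to 134747368, on the minus strand. It was measured at 123 FPKM in WT and at 119 FPKM in PU.1 KO. The levels were above those of 94.4% and 94.6% of the genes of at least 1 FPKM. PU.1 KO was at 96.6% of WT. In the values as deposited, the Eln interval, 93.4% to 100.03%, was the only one of the 10 that included equality. Which intervals include equality depends on the scaling between libraries. Rescaled to centre the fibroblast markers, the log2 ratio was −0.19 for Eln, 0.07 for Fbln1 and 0.12 for Fbln5. Rescaled to the same FPKM sum, it was −0.10 for Emilin1. The estimated reads behind the Eln ratio were 6194 and 6880, the most of any of these genes, so that the counting error was small.

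The fibrillins, the large glycoproteins that form the microfibril itself, were both lower in PU.1 KO, by less than 1.5-fold in the values as deposited. Fbn1, on chromosome 2 from 125300594 to 125506485, is the main fibrillin of postnatal tissue and the gene mutated in Marfan syndrome. It had 33.3 FPKM in WT against 24.4 FPKM in PU.1 KO, which is 73.4% of WT (interval of the ratio 0.702 to 0.767). Fbn2, on chromosome 18 from 58008623 to 58210572, is best known from developing tissue. It was the lowest of the 10 genes, with 5.83 FPKM in WT against 4.94 FPKM in PU.1 KO, a ratio of 0.848 (0.771 to 0.933). Fbn2 made up 14.9% of the summed fibrillin level in WT and 16.8% in PU.1 KO. The ratio of Fbn2 to Fbn1, which scaling between libraries cannot alter, was 0.175 in WT and 0.202 in PU.1 KO, a change of 1.16-fold with an interval of 1.04 to 1.28. Only Emilin2 and Mfap5 had a lower ratio of PU.1 KO over WT than Fbn1 among the 10 genes.

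The fibulins went in both directions and all stayed within 1.3-fold. Fbln5, on chromosome 12 from 101746565 to 101819119, encodes the fibulin that tethers elastin to microfibrils and cells and without which mice have loose skin. It had 9.19 FPKM in WT against 11.0 FPKM in PU.1 KO, a ratio of 1.20 (1.09 to 1.32). Fbln1, on chromosome 15 from 85205949 to 85286294, encodes a fibulin of elastic fibers and basement membranes. It was measured at 14.5 and 16.8 FPKM, a ratio of 1.16 (1.05 to 1.28). Fbln2, on chromosome 6 from 91212460 to 91272540, encodes a larger fibulin that binds fibrillin and fibronectin. It was the most abundant fibulin, at 58.7 FPKM in WT against 51.6 FPKM in PU.1 KO, a ratio of 0.879 (0.840 to 0.920). Because Fbln2 outweighed the others, the summed fibulin level was 82.4 FPKM in WT against 79.4 FPKM in PU.1 KO. Within each library, Fbln2 was 4.05 times as abundant as Fbln1 in WT and 3.07 times in PU.1 KO. Fbln5 was at 0.0749 of the Eln level in WT and 0.0931 in PU.1 KO, a 1.24-fold difference (1.12 to 1.38).

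The emilins, glycoproteins at the interface of elastin and microfibrils, were both lower in PU.1 KO but by different amounts. Emilin2, on the minus strand of chromosome 17 from 71252172 to 71311556, was at 37.5 FPKM in WT and at 12.0 FPKM in PU.1 KO. It was 3.11-fold lower in PU.1 KO (interval 2.86 to 3.40), from about 1937 and 715 reads. Of all genes of at least 1 FPKM, 3.31% had a log2 ratio as low or lower. Emilin1, on chromosome 5 from 30913387 to 30921279, encodes the related protein that also restrains TGF-beta processing. It had 15.4 FPKM in WT against 13.9 FPKM in PU.1 KO, a ratio of 0.903 (0.817 to 0.997). Emilin2 was thus the more abundant emilin in WT, at 2.43 times Emilin1, and the less abundant in PU.1 KO, at 0.865 times Emilin1. The ratio between the genes differed 2.81-fold (2.46 to 3.21) between the libraries. In shares, Emilin2 supplied 70.9% of the summed emilin level in WT and 46.4% in PU.1 KO.

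Markers of the leukocytes that PU.1 KO pups lack were lower in PU.1 KO, as were 7 of the 10 elastic fiber genes, Emilin2 among them. All 10 macrophage markers were at least 2-fold lower, and their summed level was 821 FPKM in WT against 11.7 FPKM in PU.1 KO. Over all genes, 4.45% were at least 2-fold lower. In PU.1 KO, Tyrobp (196 FPKM in WT) and C1qb (123 FPKM in WT) were listed at 0, as were Adgre1, C1qa and C1qc. The 5 other macrophage markers had 0.417 to 5.97 FPKM in PU.1 KO. Of 8 neutrophil markers, 7 were at least 2-fold lower, with a sum of 12565 FPKM in WT against 3676 FPKM in PU.1 KO, where Ngp, Retnlg, Ltf and Csf3r were at 0. S100a8, at 6600 and 2129 FPKM, and S100a9, at 5311 and 1516 FPKM, made up most of that sum. All 7 mast cell markers of at least 1 FPKM were below WT, 6 of them at least 2-fold, with list sums of 742 and 14.2 FPKM, and Mcpt4, Ms4a2 and Fcer1a were at 0 in PU.1 KO. The 2 most abundant of them, Tpsb2 and Cma1, had 224 and 223 FPKM in WT and 0.788 and 0.436 FPKM in PU.1 KO. Platelets are not leukocytes, and of 4 platelet markers of at least 1 FPKM, 2 were at least 2-fold lower. These were Pf4, at 635 and 2.35 FPKM, and Ppbp, at 72.0 and 0.217 FPKM, and they made up most of the list's summed level in WT, which was 716 FPKM against 11.9 FPKM in PU.1 KO. Gp1bb had 5.25 and 4.99 FPKM, and Itga2b had 3.19 and 3.83 FPKM. The part of leukocytes and platelets in the Emilin2 difference was not tested.

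The microfibril-associated proteins Mfap4 and Mfap5, which share a name but not a protein family, went in opposite directions. Mfap5, also called MAGP-2, is a small glycoprotein that binds fibrillin, and its gene lies on chromosome 6 from 122513584 to 122529290. It was second only to Eln in WT, at 64.5 FPKM, and had 34.3 FPKM in PU.1 KO. This was 1.88-fold lower (interval 1.71 to 2.07), and 4.93% of all genes had a log2 ratio as low or lower. Mfap4, on chromosome 11 from 61485431 to 61488708, encodes a fibrinogen-related protein that binds elastin and fibrillin. It had 24.4 FPKM in WT against 35.2 FPKM in PU.1 KO, a ratio of 1.45 (1.29 to 1.62), and 6.47% of all genes had a log2 ratio as high or higher. Mfap5 was 2.65 times as abundant as Mfap4 in WT and 0.975 times in PU.1 KO, a 2.72-fold difference of the ratio (2.35 to 3.15). Their summed level was 88.9 FPKM in WT against 69.6 FPKM in PU.1 KO.

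The order of the levels differed between the wounds mainly through these genes. In WT the order was Eln, Mfap5, Fbln2, Emilin2, Fbn1, Mfap4, Emilin1, Fbln1, Fbln5 and Fbn2. In PU.1 KO it was Eln, Fbln2, Mfap4, Mfap5, Fbn1, Fbln1, Emilin1, Emilin2, Fbln5 and Fbn2. Emilin2 was in place 4 in WT and place 8 in PU.1 KO, and Mfap4 in place 6 and place 3. Counting intervals of neighbors overlapped for Emilin1 and Fbln1 in WT, and for Mfap4 and Mfap5 and for Emilin2 and Fbln5 in PU.1 KO. All other neighbors were apart by more than counting error, and their spread between animals is not known.

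**Figure D3:**
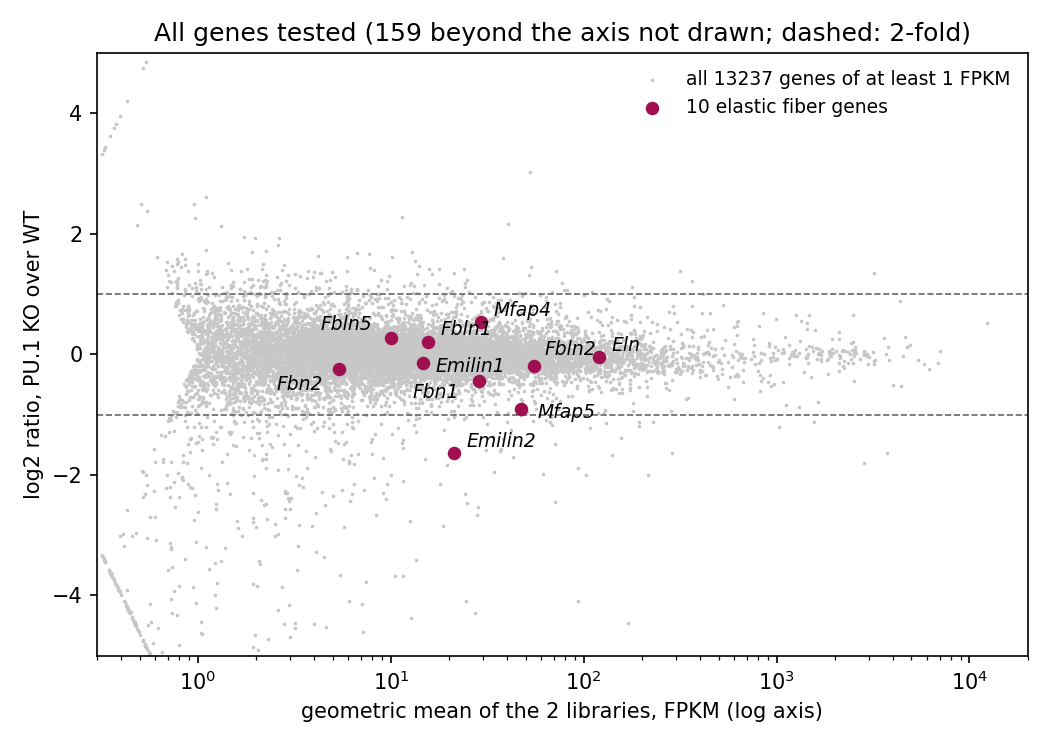
Log2 ratio of PU.1 KO over WT against the geometric mean level of the libraries in FPKM, for the 13237 genes of at least 1 FPKM in 1 or both (grey) and the 10 elastic fiber genes (red), with 159 genes beyond the axis not drawn. Emilin2 lies below the 2-fold line, and the other 9 genes lie between the lines.

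Fibroblasts and smooth muscle cells are the main makers of elastic fibers, and all their markers but Des were within 1.5-fold of WT. All 10 fibroblast markers were above WT, none by 1.5-fold, with log2 ratios from 0.06 to 0.54. Their median was 0.14 and their sums were 3180 and 3730 FPKM. The smooth muscle list had a median of −0.21 over 6 genes, with Des at 396 and 699 FPKM and Acta2 at 68.1 and 61.9 FPKM. Des is also a skeletal muscle gene, and all 8 skeletal muscle markers were at least 1.5-fold higher, led by Acta1 at 3224 and 5955 FPKM and Mylpf at 1969 and 3113 FPKM. Over all genes, 5.45% were at least 1.5-fold higher. Endothelium markers had a median of 0.29 over 6 genes, with Pecam1 at 65.3 and 78.7 FPKM and Cdh5 at 33.8 and 41.8 FPKM, and keratinocyte markers a median of 0.17 over 8. When the libraries were rescaled so that the fibroblast markers had a median log2 ratio of 0, the median of all genes moved to −0.15 and every elastic fiber ratio was lower by 0.14. No gene of the 10 changed direction. Mfap5 passed the 2-fold threshold, and Fbn1, at a log2 ratio of −0.59, passed the 1.5-fold threshold. Under that rescaling 696 of all genes were at least 2-fold lower and 135 higher, against 589 and 226 in the values as deposited. The part of cell composition in the elastic fiber ratios was not tested.

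Most partners in assembly were within 2-fold of WT. The wider fibulin and emilin families had 4 genes of at least 1 FPKM. None was 2-fold different, against 4.45% of all genes lower and 1.71% higher. Of the 4 family genes, 3 were above WT and 1 below, with a median log2 ratio of 0.43. Mmrn1 had the highest ratio, 1.84. Efemp1 (fibulin-3) had 17.1 and 25.3 FPKM, a ratio of 1.48 (1.31 to 1.67). Efemp2 (fibulin-4), which is needed for elastin crosslinking, had 52.6 and 42.3 FPKM. Of 10 microfibril partners of at least 1 FPKM, Ltbp2 and Adamtsl4 were at least 2-fold lower and none was 2-fold higher. The shares of all genes were 4.45% and 1.71%. These partners had a median log2 ratio of 0.09. Ltbp2, a fibrillin-binding relative of the TGF-beta binding proteins, had 4.11 FPKM in WT against 1.63 FPKM in PU.1 KO, 2.53-fold lower (2.10 to 3.06). Adamtsl4, a secreted protein that binds fibrillin-1, had 3.96 and 1.42 FPKM, 2.80-fold lower (2.17 to 3.65). The most abundant partners were Mfap2 (MAGP-1), at 66.3 and 71.8 FPKM, and the proteoglycan Vcan, at 37.4 and 35.4 FPKM. Mfap2 is the relative of Mfap5, and its ratio of 1.08 had an interval of 0.986 to 1.19. None of the 5 lysyl oxidases was 1.5-fold different, against 8.17% of all genes lower and 5.45% higher. Lox had 74.0 and 62.2 FPKM and Loxl1, which is targeted to elastin, had 59.9 and 51.7 FPKM, and the list had a median log2 ratio of −0.21.

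Enzymes that degrade elastin differed among themselves. Of 8 such enzymes of at least 1 FPKM, 3 were at least 2-fold lower and none was 2-fold higher. The shares of all genes were 4.45% and 1.71%. Ctss, a cathepsin of macrophages and other antigen-presenting cells, had 63.1 FPKM in WT and was listed at 0 in PU.1 KO, at least 386-fold lower if 3 reads are taken as the limit of a count of 0. The exact binomial interval used for the other ratios, which is two-sided, had its bound at 313-fold. Prtn3 and Elane, serine proteases of neutrophil granules, were low already in WT, at 3.24 and 1.02 FPKM, and had 0.166 and 0.0887 FPKM in PU.1 KO, from about 2 reads and 1 read. The most abundant enzymes were Ctsl, a cathepsin of many cell types, at 439 and 383 FPKM, and Mmp14, a membrane-bound metalloproteinase, at 123 and 158 FPKM.

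Most receptors of these matrix proteins were within 2-fold of WT. Of 11 receptor genes of at least 1 FPKM, 1 was at least 2-fold lower and 1 was 2-fold higher. The shares of all genes were 4.45% and 1.71%. The receptors had a median log2 ratio of 0.10. Itgb1, the beta chain of many matrix integrins, had 178 FPKM in both libraries, and Itga5, its partner in binding fibronectin, had 66.9 and 60.8 FPKM. Itga4, which with Itgb1 binds Emilin1 and other ligands, had 1.13 FPKM in WT against 2.39 FPKM in PU.1 KO, a ratio of 2.12 (1.75 to 2.58). Glb1, the lysosomal beta-galactosidase whose splice variant is the elastin-binding protein, had 19.0 and 9.48 FPKM. Its difference of 2.01-fold (1.77 to 2.28) lay at the threshold. Splice variants were not resolved in these values.

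**Figure D4:**
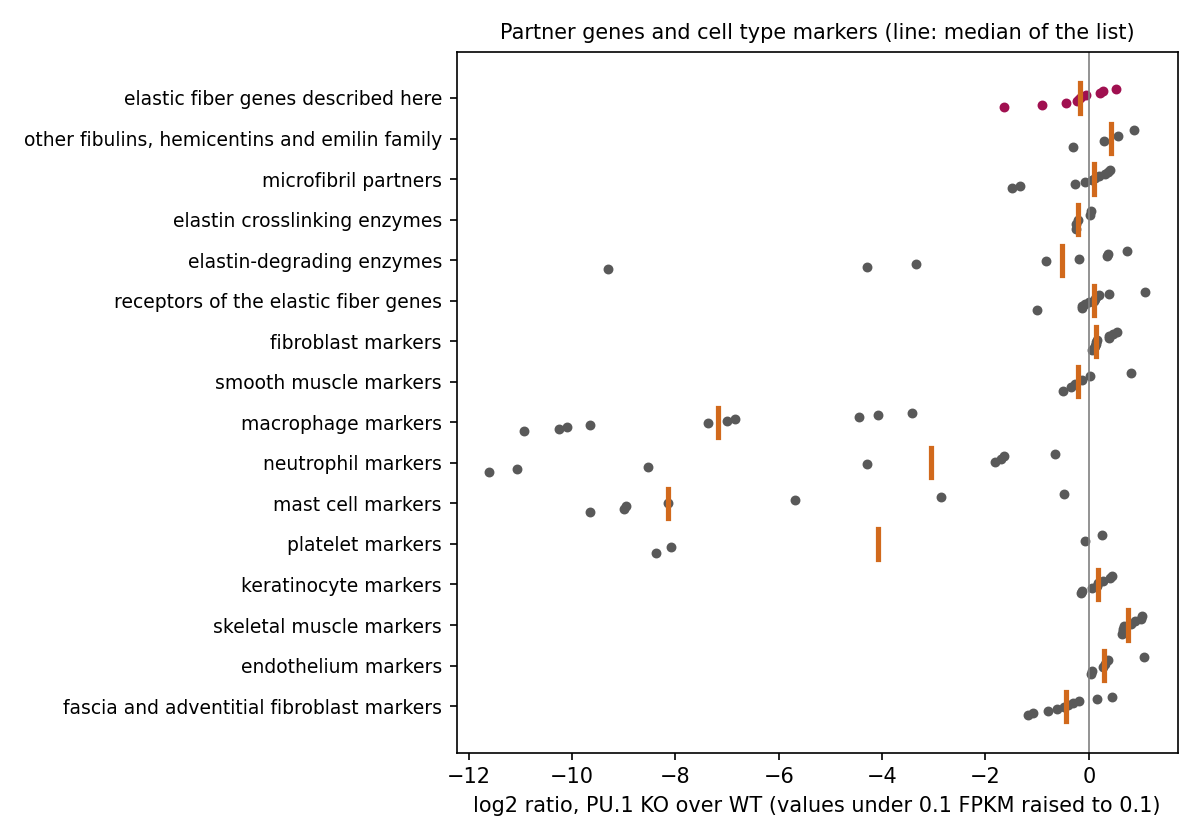
Log2 ratio of PU.1 KO over WT for each gene of at least 1 FPKM, in the 10 elastic fiber genes (red) and in lists of partner genes and cell type markers (grey), with an orange line at each list's median. The elastic fiber genes have a median of −0.17, the fibroblast markers of 0.14, and the macrophage markers of −7.18, with genes listed at 0 raised to 0.1 FPKM.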

How the data were processed

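Skin wound mRNA of 1 WT and 1 PU.1 KO library was analysed, grouped by the genotype labels. The authors mapped single-end reads to mm10 and calculated FPKM with Cuffnorm. Per the labels, the processing notes name TopHat2 2.1.1, Bowtie2 2.2.8, SAMtools 0.1.18 and Cuffdiff 2.2.1, and no source used here names the gene annotation. The deposited FPKM values were not rescaled. For ratios, values below 0.1 FPKM were raised to 0.1, and genes of at least 1 FPKM in 1 or both libraries were compared at 2-fold and 1.5-fold.

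Among genes below 0.05 FPKM with transcripts over 1500 nt, 58.5% of 583 in WT and 51.6% of 649 in PU.1 KO lay at 1 read, which gave the depth. Reads were estimated from FPKM, depth and the longest GENCODE M21 transcript with a RefSeq match, less 200 nt. Equal read numbers in low genes gave a WT over PU.1 KO ratio of 1.149 (459 genes within 0.001), the same as the ratio of these depths. Both were read from the steps of low values, so the match is no independent check of sequenced depth. Intervals of levels are exact Poisson, those of ratios exact binomial (Clopper-Pearson), and those of ratios between genes exact conditional. Gene positions and promoter windows are from RefSeq on GRCm38.p6. All 10 symbols matched a gene, and 6 matched a window.

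The 10 genes and all lists were chosen with earlier results of these data known. Named were the 10 genes, Spi1, partner genes at least 2-fold different, and the 2 most abundant genes of each list. The sex-linked genes, markers listed at 0, Itga2b, Gp1bb, the fascia list, and Mmrn1, Mmp2, Mmp9 and Ctsk were named after their values were seen. Hmcn2 and Ly6g were not analysed here. Scripts were tested on simulated data. The analysis used Python 3.11.15 with matplotlib 3.10.9, scipy 1.17.1, numpy 2.4.6 and pandas 2.3.3.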

Additional observations from a re-analysis of the deposited data

How the results depend on the processing

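With 1 library per genotype, no value has a spread between animals. No paired analysis was possible because each group has 1 library and the labels give no replicate number. There were 6 other settings of the low values, filter and scaling, and counts by interval. Of 144 values, 126 stayed within 1.5-fold of the count or within counting error. None of the 10 genes changed direction. Part of this tally was fixed in advance. All 10 genes had at least 4.94 FPKM, so raising values below 1 FPKM to 1 could not move them. Scaling to the same median over genes of at least 10 FPKM multiplied PU.1 KO values by only 1.004. Counts of 0 that stayed at 0 are also among the 126. Emilin2 was 2.95-fold to 3.44-fold lower throughout and Mfap5 1.82-fold to 2.07-fold. With the fibroblast markers centred, 2 of the 10 genes were at least 2-fold lower in place of 1, and 3 at least 1.5-fold lower in place of 2. The median log2 ratio of the 10 was −0.31 in place of −0.17. In that setting 7 of the 10 ratios left their counting interval, and 0 receptors were 2-fold higher in place of 1. With a pseudocount of 1 FPKM, 1 microfibril partner was at least 2-fold lower in place of 2, and 0 receptors passed in either direction. At a minimum of 10 FPKM, 9 of the 10 genes were left, 0 microfibril partners and 1 elastin-degrading enzyme were lower in place of 2 and 3, and 0 receptors were higher. With the same FPKM sum, or the same median, 0 receptors were lower in place of 1. Over all genes, 589 lower and 226 higher became 461 and 89 with the pseudocount, 463 and 164 with values below 1 FPKM raised to 1, and 209 and 64 at 10 FPKM. Where a transcript length other than the authors' was used, an interval can be too narrow or too wide. With the median transcript length, the estimated WT reads of Fbln1 were 554 in place of 692, and no interval changed its side of a ratio of 1.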

Other observations

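Mfap5 is known as a marker of fascia and adventitial fibroblasts, and 10 other markers of those cells were examined in the same libraries. The list was chosen after the values were seen. Of the 10, Pi16 and Clec3b were at least 2-fold lower in PU.1 KO and none was 2-fold higher, against 4.45% and 1.71% of all genes. The study had already listed Pi16 and Clec3b among genes lower in PU.1 KO wounds by mRNA sequencing. The counts are not independent of that listing. The summed level of the 10 markers was 428 FPKM in WT against 367 FPKM in PU.1 KO, and their median log2 ratio was −0.44. Pi16, a marker of adventitial fibroblasts, had 19.9 and 8.79 FPKM, and Clec3b, which encodes tetranectin, had 34.6 and 16.4 FPKM. Wnt2 had 6.39 and 3.69 FPKM and Cd55 had 13.9 and 9.04 FPKM. In contrast, Cd34 had 46.5 and 63.7 FPKM and Sema3c had 11.6 and 12.9 FPKM. The most abundant of the list, Ly6a, had 257 and 224 FPKM. The part of these cells in the Mfap5 difference was not tested.

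Outside the 10 genes, some relatives and matrix enzymes were above WT by less than 2-fold. Mmrn1, an emilin family member of platelets and endothelium, had 6.26 FPKM in WT against 11.5 FPKM in PU.1 KO, a ratio of 1.84 (interval 1.62 to 2.09). Mmp2, a gelatinase of fibroblasts, had 101 and 169.9 FPKM, a ratio of 1.68 (1.61 to 1.74). Mmp9, the gelatinase of neutrophils, macrophages and keratinocytes, was lower instead, at 34.5 and 19.3 FPKM, 1.79-fold (1.64 to 1.94).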
